A study of Mus musculus with 12 samples.

Results

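The vascular endothelial growth factor (VEGF) ligands and their receptors were described in mouse retinas with oxygen-induced retinopathy. The 9 genes were listed by symbol: the ligands Vegfa, Vegfb, Vegfc and Pgf, the receptor tyrosine kinases Flt1, Kdr and Flt4, and the coreceptors Nrp1 and Nrp2. Each matched 1 of the 36131 genes in the deposited table, and all 9 passed the filter on low counts. In the oxygen model, pups are kept in high oxygen while the retinal vessels are growing, the capillaries of the central retina regress, and the return to room air leaves that retina hypoxic and is followed by abnormal new vessels. All 12 mice were C57BL/6J wildtype, and 1 library was made from the retina of each at postnatal day 18 (P18). RA-PBS mice (animals 1 to 4) stayed in room air and received placebo (PBS). O2-PBS mice (animals 5 to 8) were exposed to 75% O2 from P7, with P12 written in the labels as the end and P11 in the methods as the last day, and received placebo. O2-IC100 mice (animals 9 to 12) had the same oxygen and received IC100 at 10 µg/g on P12, P14 and P16. IC100 is a humanized antibody against ASC, the adaptor protein of inflammasomes. For both agents the labels give the intraperitoneal route, whereas the methods describe placebo given into the vitreous in part of the work. The labels number the animals separately, but litters are not given, so p-values measure the spread between these mice.

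VEGF-A acts mainly through VEGFR2, the product of Kdr, which drives endothelial proliferation, sprouting and permeability. VEGFR1, the product of Flt1, binds VEGF-A more tightly but signals weakly, and its soluble form holds ligand away from VEGFR2. VEGF-B and placental growth factor (PlGF, from Pgf) bind VEGFR1 only, VEGF-C binds VEGFR3 (from Flt4) and, once processed, VEGFR2, and the neuropilins present VEGF to the kinases and also bind class 3 semaphorins. In the retina, glia are a main source of VEGF-A, and hypoxia raises its transcription through hypoxia-inducible factors (HIF). The counts were summed over each gene's transcripts, so splice forms, the soluble Flt1 form among them, were not told apart.

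Of the 9 genes, Vegfa, Pgf, Kdr, Flt4 and Nrp1 differed between groups below. The upstream promoter sequences of the first 4 are shown because hypoxia acts on this family through promoter and enhancer DNA. Each is the 250 bases before the transcription start in the RefSeq promoter table (GRCm38.p6; the most upstream start where the table gives several), read 5′ to 3′ on the gene's strand. Capitals mark GCGTG, 1 of the 2 forms of the HIF core searched, and GGGCGG, the GC box bound by SP factors, each on either strand. The stretches are chr17:46032378-46032627 on the minus strand (Vegfa), chr12:85177314-85177563 on the minus strand (Pgf), chr5:75978456-75978705 on the minus strand (Kdr) and chr11:49609429-49609678 on the plus strand (Flt4).
Vegfa: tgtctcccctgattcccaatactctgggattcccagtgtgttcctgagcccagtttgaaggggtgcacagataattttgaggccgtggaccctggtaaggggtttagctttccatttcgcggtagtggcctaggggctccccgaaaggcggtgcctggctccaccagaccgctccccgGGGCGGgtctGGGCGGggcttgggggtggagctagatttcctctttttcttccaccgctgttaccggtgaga
Pgf: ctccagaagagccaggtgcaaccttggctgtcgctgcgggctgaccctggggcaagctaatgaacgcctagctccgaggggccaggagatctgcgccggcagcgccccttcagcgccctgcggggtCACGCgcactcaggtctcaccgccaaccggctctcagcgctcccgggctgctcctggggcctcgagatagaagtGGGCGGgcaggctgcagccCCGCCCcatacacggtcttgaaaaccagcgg
Kdr: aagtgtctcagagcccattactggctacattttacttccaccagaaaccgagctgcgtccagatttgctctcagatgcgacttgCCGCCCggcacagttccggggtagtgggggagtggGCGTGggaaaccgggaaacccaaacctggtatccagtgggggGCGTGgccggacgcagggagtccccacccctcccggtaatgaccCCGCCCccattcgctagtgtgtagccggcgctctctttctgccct
Flt4: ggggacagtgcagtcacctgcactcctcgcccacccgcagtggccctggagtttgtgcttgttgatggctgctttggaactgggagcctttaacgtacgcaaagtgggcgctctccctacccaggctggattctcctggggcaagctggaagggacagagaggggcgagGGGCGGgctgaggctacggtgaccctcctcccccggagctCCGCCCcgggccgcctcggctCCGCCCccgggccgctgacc
The other HIF core form, ACGTG, had no match in the 250 bases of any of the 9 genes, while 16.6% of the 32851 promoter stretches in the table held it. GCGTG, present in 28.2% of all stretches, matched 2 times in Kdr, Vegfb and Nrp2, 1 time in Pgf, Flt1 and Nrp1, and not in Vegfa, Vegfc or Flt4. GGGCGG, present in 32.7% of all stretches, had at least 1 match in each of the 9 genes, from 1 in Nrp1 to 5 in Nrp2. In Vegfa its matches began 72 and 62 bases before the start, and in Kdr the 2 GCGTG matches began 131 and 89 bases before it. Of the other motifs searched on both strands, the ETS form CCGGAA (12.0% of all stretches) matched only in Kdr, and the AP-1 form TGANTCA (6.75%) in none of the 9. These matches describe letters in a short window, and elements farther from the start were not searched.

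Total counts were 14907143 to 24438082 per retina. Counts were scaled to a common library size with edgeR's trimmed-mean factors, giving normalised CPM, and compared with edgeR's quasi-likelihood test in 1 model of the 3 groups. The study's thresholds were used for calls: at least 1.5-fold, p under 0.05, and an adjusted p (Benjamini-Hochberg, over all genes tested) under 0.1. Crystallin genes, which encode the lens proteins, took 59.0% of the counts of O2-IC100 animal 10, and rod photoreceptor markers took 0.306% there against 3.46% to 4.31% in the other 11 retinas. Fits were therefore made both with and without animal 10. Crystallins also took 1.25%, 4.50% and 1.44% of counts in RA-PBS animals 2, 3 and 4, against at most 0.0158% in the remaining 8 retinas. The summed level of Y-linked genes was 223 to 324 CPM in animals 1, 2, 3, 8, 9, 11 and 12 and 4.04 to 9.85 CPM in the other 5, so only 1 O2-PBS retina was of the first kind against 3 in each of the other groups. Every endothelial, rod and glial marker listed was detected in the 11 retinas without animal 10.

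**Figure D1:**
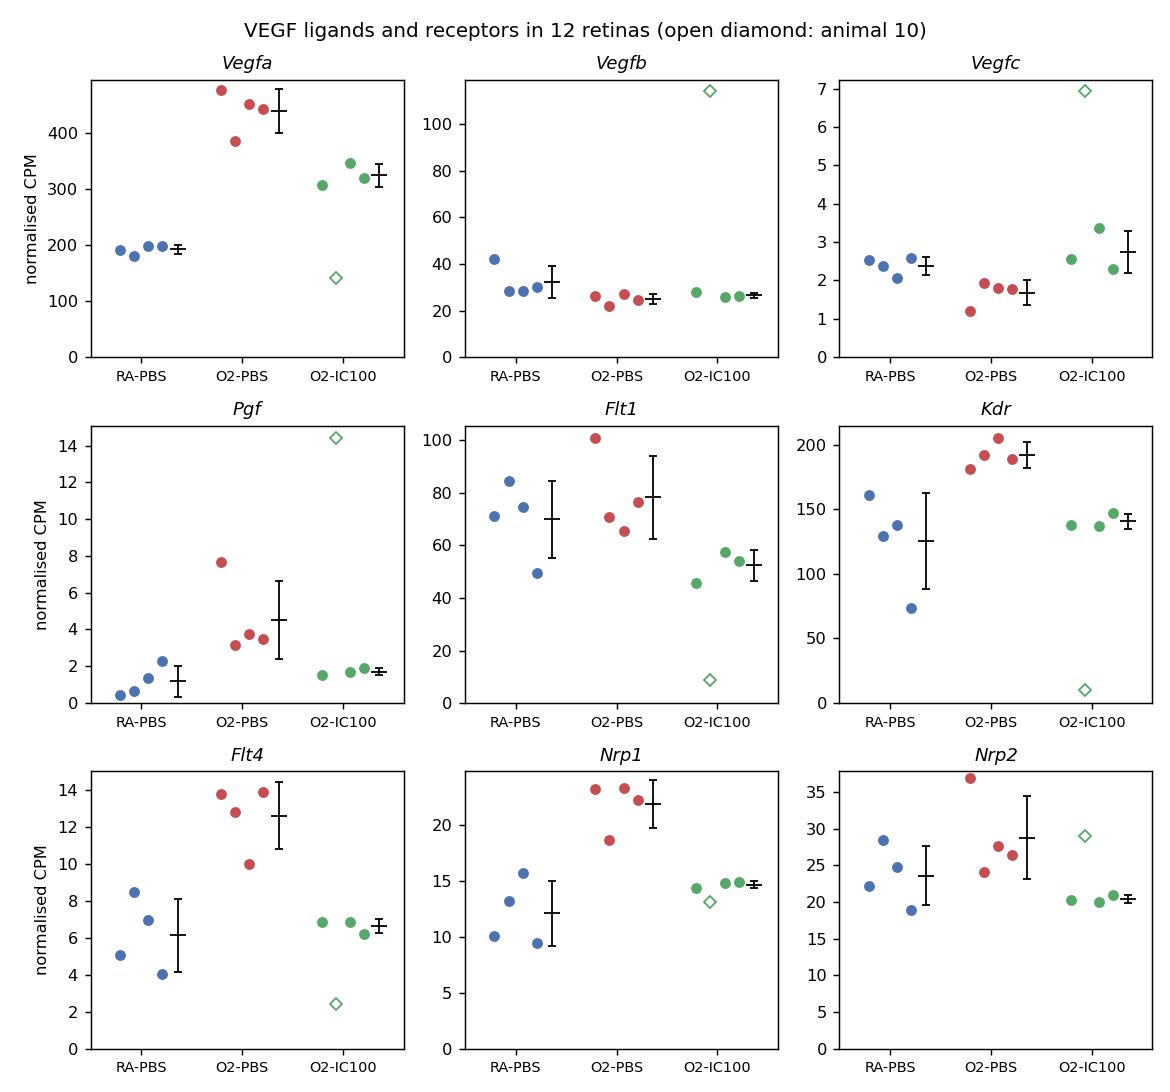
Normalised CPM (vertical axes, from 0) of the 9 genes in each of the 12 retinas, by group, with 1 point per retina, the open diamond for animal 10, and black bars for the mean ± SD without it. Vegfa, Pgf, Kdr, Flt4 and Nrp1 are higher in all 4 O2-PBS retinas than in all 4 RA-PBS retinas, and animal 10 is high for Vegfb, Vegfc and Pgf and low for Flt1, Kdr and Flt4.

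Per kilobase (kb) of the longest annotated transcript, which allows levels to be compared between genes, Vegfa was the most abundant of the 9 genes in all groups. In RA-PBS its level was 55.9 ± 2.45 CPM per kb (SD, n = 4), followed by Vegfb at 25.2 ± 5.25, Kdr at 21.2 ± 6.24 and Flt1 at 10.2 ± 2.13. Nrp2 (3.50 ± 0.598) and Nrp1 (3.32 ± 0.804) came next, and Flt4 (0.979 ± 0.313), Vegfc (0.972 ± 0.0964) and Pgf (0.568 ± 0.398) were lowest. The ranges over the 4 retinas overlapped between Vegfb and Kdr, between Nrp2 and Nrp1, and among Flt4, Vegfc and Pgf, so the order within these neighbours is not resolved. In O2-PBS, Vegfa stood at 127 ± 11.3 CPM per kb, Kdr (32.4 ± 1.68) was above Vegfb (19.4 ± 1.75) with no overlap, and Pgf (2.17 ± 1.01) and Flt4 (2.01 ± 0.287) were above Vegfc (0.686 ± 0.132). With the median transcript length in place of the longest, 4 of the 8 neighbouring pairs of the RA-PBS order were kept, so this order depends on which transcripts are taken as present.

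**Figure D2:**
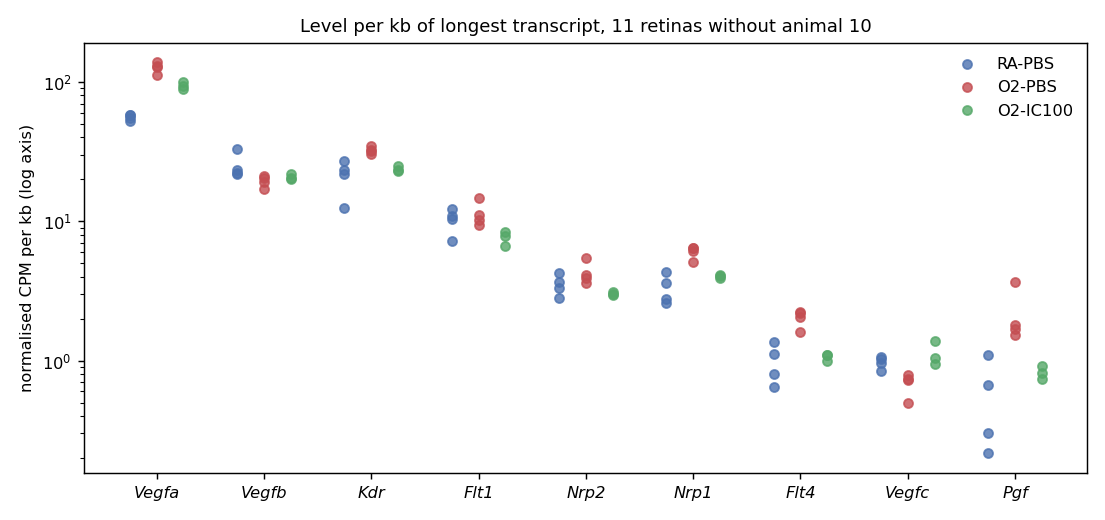
Level per kb of longest transcript (log axis) of the 9 genes in the 11 retinas without animal 10, 1 point per retina, coloured by group and ordered by the RA-PBS mean. Vegfa is highest in every group, at 55.9, 127 and 94.3 CPM per kb on average in RA-PBS, O2-PBS and O2-IC100, and Flt4, Vegfc and Pgf are lowest.

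Oxygen-induced retinopathy was first compared with room air, which asks how the VEGF family differed in retinas with abnormal vessels. Vegfa was 2.28-fold higher in O2-PBS than in RA-PBS, Pgf 3.79-fold, Flt4 2.05-fold, Nrp1 1.81-fold and Kdr 1.53-fold, all called in the fit without animal 10. Flt1 and Nrp2 were not called, and the 2 remaining ligands, Vegfb and Vegfc, were lower in every O2-PBS retina than in every RA-PBS retina without passing the thresholds. The share of all genes that separate groups in this way was not computed for any comparison, so separation is given only as description. In the fit without animal 10, 3648 of 16688 genes had an unadjusted edgeR p under 0.05. In that fit 5 of the 9 genes were called, all higher, while 4.09% of all genes tested were called higher. In the fit of all 12 retinas 2 of the 9 were called, Vegfa and Nrp1, against 0.782% of all genes. No O2-IC100 retina enters the difference of these 2 groups, but animal 10 enters the estimate of the spread, so the fold changes were nearly the same in both fits and the standard errors were not.

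Vegfa read 192, 181, 199 and 199 CPM in RA-PBS animals 1 to 4 and 478, 386, 453 and 443 CPM in O2-PBS animals 5 to 8. Every O2-PBS retina was far above every RA-PBS retina, and the RA-PBS values lay close together. The log2 fold change was 1.19 with a standard error (SE) of 0.087 without animal 10 (edgeR, adjusted p = 1.14e-05, rank 3 of 16688 genes by p) and 1.19 with an SE of 0.23 in all 12 retinas (adjusted p = 0.0557).

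Pgf was scarce in room air, at 0.449, 0.628, 1.39 and 2.26 CPM in RA-PBS, which rests on 8 to 43 counts per retina. In O2-PBS it read 7.66, 3.18, 3.73 and 3.49 CPM, from 61 to 127 counts. All 4 O2-PBS retinas were above all 4 RA-PBS retinas, although RA-PBS animal 4 came near the lowest O2-PBS value. Its log2 fold change was 1.92 with an SE of 0.43 without animal 10 (edgeR, adjusted p = 0.0152) and 1.93 with an SE of 0.79 in all 12 (adjusted p = 0.607).

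Vegfb, which encodes a ligand of VEGFR1 linked to fatty acid handling and cell survival more than to sprouting, read 42.2, 28.4, 28.2 and 30.0 CPM in RA-PBS and 26.1, 22.0, 27.1 and 24.4 CPM in O2-PBS. The groups did not overlap, but the difference was under 1.5-fold (log2 fold change -0.37, SE 0.13, edgeR, adjusted p = 0.0992 without animal 10). Vegfc, known for lymphatic growth, read 2.52, 2.37, 2.05 and 2.58 CPM in RA-PBS and 1.21, 1.93, 1.81 and 1.77 CPM in O2-PBS, from 20 to 49 counts per retina. Its groups did not overlap either, and its log2 fold change of -0.50 (SE 0.23) had an adjusted p of 0.225 in the edgeR fit without animal 10. With the crystallin level as a covariate in that fit, Vegfb was called lower (log2 fold change -0.75, edgeR, adjusted p = 0.00141), as were 6.26% of all genes.

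Of the 3 receptor kinases, Flt4 had the largest fold change. VEGFR3 is the receptor of lymphatic vessels and is also carried by sprouting blood vessels. Flt4 read 5.05, 8.45, 6.94 and 4.05 CPM in RA-PBS and 13.7, 12.8, 10.0 and 13.9 CPM in O2-PBS, with no overlap. The log2 fold change was 1.04 with an SE of 0.20 without animal 10 (edgeR, adjusted p = 0.00635) and 1.04 with an SE of 0.32 in all 12 retinas (adjusted p = 0.313). The retina has no lymphatic vessels, and of the 3 lymphatic markers tested 1 was called, Lyve1, which macrophages also carry and which was lower in O2-PBS without animal 10 (log2 fold change -0.67, SE 0.14, edgeR, adjusted p = 0.00975) but not called in all 12 retinas (adjusted p = 0.822). Of all genes, 2.18% were called lower in that comparison without animal 10. The lymphatic chemokine gene Ccl21a was at 0 in 2 of the 11 retinas without animal 10.

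Kdr, in the retina a gene of endothelial cells that has also been described in neurons, read 161, 129, 138 and 74.0 CPM in RA-PBS and 181, 192, 205 and 189 CPM in O2-PBS. The groups did not overlap, but the RA-PBS retinas spread over more than a 2-fold range, with animal 4 lowest. The log2 fold change of 0.61 (SE 0.17) was just past the fold threshold without animal 10 (edgeR, adjusted p = 0.0423) and had an adjusted p of 1 in all 12. It was 0.43 without RA-PBS animal 4, under the fold threshold, 0.58 without O2-PBS animal 7 (adjusted p = 0.111), and 0.35 with the crystallin covariate (adjusted p = 0.282), and in all 12 retinas with that covariate its sign turned (-0.60).

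Flt1 was the receptor kinase that was not called. It read 71.3, 84.4, 74.7 and 49.6 CPM in RA-PBS and 101, 70.7, 65.4 and 76.5 CPM in O2-PBS, overlapping groups with a log2 fold change of 0.16 (SE 0.16, 95% confidence interval -0.18 to 0.50, edgeR, adjusted p = 0.597 without animal 10). In all 12 retinas with the crystallin covariate its sign turned as well (-0.66). Nrp1, the coreceptor that pairs with VEGFR2 on blood vessels, read 10.1, 13.2, 15.8 and 9.43 CPM in RA-PBS and 23.3, 18.7, 23.4 and 22.3 CPM in O2-PBS, with no overlap. Its log2 fold change was 0.85 with an SE of 0.15 without animal 10 (edgeR, adjusted p = 0.00331) and 0.85 with an SE of 0.17 in all 12 (adjusted p = 0.0574). Nrp2, the coreceptor that pairs with VEGFR3, read 22.2, 28.4, 24.8 and 18.9 CPM in RA-PBS and 36.9, 24.1, 27.6 and 26.4 CPM in O2-PBS, which overlap, and its log2 fold change was 0.29 (SE 0.14, edgeR, adjusted p = 0.256 without animal 10).

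Lens and pigment epithelium markers moved with this comparison. Without animal 10, 8 of the 8 lens markers tested and 6 of the 9 pigment epithelium and melanocyte markers were called lower in O2-PBS, against 2.18% of all genes. With all 12 retinas fitted, 0 of 8 lens and 0 of 8 pigment epithelium and melanocyte markers were called lower by edgeR, against 0.0243% of all genes, with medians of -8.84 and -1.40 on the log2 scale. RA-PBS animal 1 had a crystallin share as low as the O2-PBS retinas (0.00315%), and its Vegfa (192 CPM), Pgf (0.449 CPM), Flt4 (5.05 CPM), Nrp1 (10.1 CPM) and Kdr (161 CPM) were each below all 4 O2-PBS values. Animal 1 is a single retina, and the part of lens and pigment epithelium tissue in the differences of the 9 genes was not tested. Gfap, a marker of astrocytes and of reactive Müller glia, was 288 CPM in RA-PBS animal 4 against 10.4 to 40.9 CPM in the other RA-PBS retinas and 89.1 to 187 CPM in O2-PBS. Its part in the low Kdr of animal 4 was not tested. Among retinas with high Y-linked counts, Vegfa was 181 to 199 CPM in 3 RA-PBS retinas and 443 CPM in the 1 O2-PBS retina, Flt4 5.05 to 8.45 and 13.9 CPM, Nrp1 10.1 to 15.8 and 22.3 CPM, and Pgf 0.449 to 1.39 and 3.49 CPM. With the Y-linked level as a covariate and without animal 10, 5 of the 9 genes were called, all higher, beside 3.18% of all genes called higher in that fit. Only 1 O2-PBS retina had high Y-linked counts, and beyond this fit the part of the Y-linked level was not tested.

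**Figure D3:**
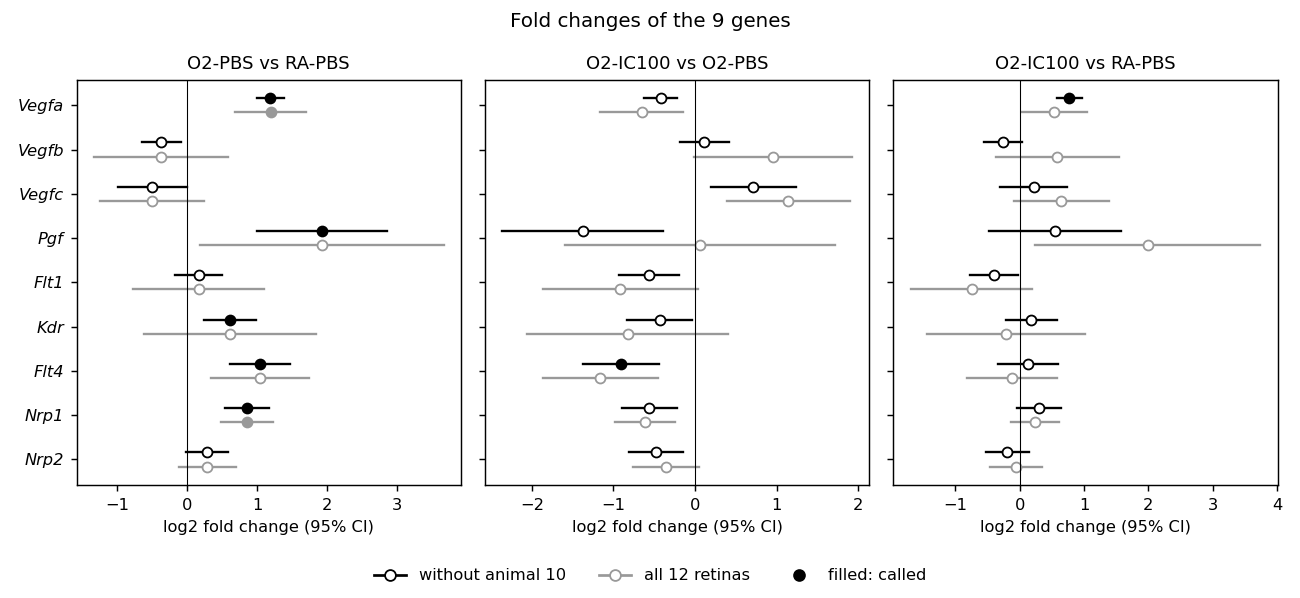
Log2 fold changes with 95% confidence intervals of the 9 genes in the 3 comparisons, without animal 10 (black) and in all 12 retinas (grey), with filled points for called genes. Intervals are wider in all 12 retinas, and 5 genes are called in O2-PBS vs RA-PBS, Flt4 in O2-IC100 vs O2-PBS and Vegfa in O2-IC100 vs RA-PBS once animal 10 is left out.

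The effect of the antibody was then asked by comparing O2-IC100 with O2-PBS, which shares the O2-PBS retinas with the comparison above, so values are set side by side and no overlap between the comparisons is read. Without animal 10, Flt4 fell to 0.533-fold and was the only called gene of the 9, while 0.731% of all genes were called lower. Vegfa was lower in all 3 O2-IC100 retinas than in all 4 O2-PBS retinas, at 0.747-fold, and passed the adjusted p but not the fold threshold. In all 12 retinas edgeR called 0 of the 9 genes and 0% of all 16489, with 4 of the 9 and 2784 of all genes at an unadjusted p under 0.05. DESeq2 called 2 of the 9 there, Flt4 and Nrp1, both lower, beside 0.621% of all genes, and limma voom called 0 of the 9.

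Flt4 read 6.87, 6.86 and 6.18 CPM in animals 9, 11 and 12, close to each other and inside the RA-PBS range, and 2.40 CPM in animal 10. Its log2 fold change against O2-PBS was -0.91 with an SE of 0.22 without animal 10 (edgeR, adjusted p = 0.0922) and -1.16 with an SE of 0.32 in all 12 (adjusted p = 0.287). The call without animal 10 was lost when any further O2-PBS or O2-IC100 animal was left out, with log2 fold changes of -1.004 to -0.859 and adjusted p of 0.119 to 0.349, and with empirical Bayes that was not robust (adjusted p = 0.101). Calls were lost over all genes too. Without animal 10, 0.947% of all genes were called in either direction. That share was 0% without a further O2-IC100 animal and 0.126% to 0.615% without a further O2-PBS animal.

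Vegfa read 308, 348 and 321 CPM in animals 9, 11 and 12, between the RA-PBS and the O2-PBS values with no overlap on either side, and 142 CPM in animal 10, below all other retinas. The log2 fold change against O2-PBS was -0.42 (SE 0.093, 95% confidence interval -0.62 to -0.22, edgeR, adjusted p = 0.0766 without animal 10) and -0.65 (SE 0.23, adjusted p = 0.287) in all 12. Pgf read 1.54, 1.68 and 1.91 CPM in animals 9, 11 and 12, below all O2-PBS retinas and inside the RA-PBS range, and 14.4 CPM in animal 10, the highest of all retinas. Its log2 fold change was -1.38 (SE 0.46, edgeR, adjusted p = 0.172) without animal 10 and 0.06 (SE 0.76, adjusted p = 0.972) with it, so with that retina its direction was not resolved. In the fit of only these 2 groups without animal 10, Pgf (log2 fold change -1.38, adjusted p = 0.0061) and Vegfc (0.70, adjusted p = 0.048) were called beside Flt4, and so were 4.83% of all genes.

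Vegfc went the other way, at 2.56, 3.36 and 2.30 CPM in animals 9, 11 and 12 and 6.94 CPM in animal 10, above all 4 O2-PBS retinas. Its log2 fold change was 0.72 (SE 0.24, edgeR, adjusted p = 0.18) without animal 10 and 1.14 (SE 0.34, adjusted p = 0.287) with it. Vegfb read 27.8, 25.9 and 26.2 CPM, which overlaps O2-PBS, and 114 CPM in animal 10 (log2 fold change 0.11, SE 0.14, edgeR, adjusted p = 0.668 without animal 10).

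Kdr read 138, 137 and 147 CPM in animals 9, 11 and 12 and Flt1 45.8, 57.5 and 53.9 CPM, all below the lowest O2-PBS retina, and animal 10 had 10.4 CPM of Kdr and 8.58 CPM of Flt1. Without animal 10 the log2 fold change of Kdr was -0.43 (SE 0.18, edgeR, adjusted p = 0.236) and that of Flt1 -0.56 (SE 0.17, adjusted p = 0.153), and in all 12 retinas they were -0.83 (SE 0.56, adjusted p = 0.433) and -0.91 (SE 0.43, adjusted p = 0.303). Nrp1 read 14.4, 14.8 and 14.9 CPM and Nrp2 20.28, 19.97 and 20.98 CPM, again below all O2-PBS retinas. Animal 10 had 13.1 CPM of Nrp1, beside these values, and 29.0 CPM of Nrp2, above them. Without it the log2 fold change of Nrp1 was -0.56 (SE 0.16, edgeR, adjusted p = 0.131) and that of Nrp2 -0.48 (SE 0.15, adjusted p = 0.163), and with it they were -0.61 (SE 0.17, adjusted p = 0.287) and -0.35 (SE 0.18, adjusted p = 0.331). Among retinas with high Y-linked counts, O2-PBS animal 8 had 443 CPM of Vegfa and 13.9 CPM of Flt4, against 308 to 348 and 6.18 to 6.87 CPM in O2-IC100 animals 9, 11 and 12. In the fit without animal 10, 8 of the 9 genes had an unadjusted p under 0.05, beside 3201 of 16688 genes tested, and the median log2 fold change of the 9 was -0.48 beside 0.004 over all genes. In all 12 retinas with the Y-linked level as a covariate 7 of the 9 were called, but so were 21.1% of all genes, in a model where animal 10 is the only O2-IC100 retina with low Y-linked counts. With that covariate and without animal 10, 1 was called, Flt4, and 0.156% of all genes were called lower.

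Against room air, Vegfa was called higher in O2-IC100 without animal 10, at 1.70-fold (log2 fold change 0.77, SE 0.092, edgeR, adjusted p = 0.00309), the only called gene of the 9, while 0.947% of all genes were called higher. The 3 retinas, at 308 to 348 CPM, were above all 4 RA-PBS retinas, at 181 to 199 CPM, and animal 10, at 142 CPM, was below them. The interval of Flt4 was -0.33 to 0.59 around a log2 fold change of 0.13, that of Kdr -0.22 to 0.57 around 0.18, and that of Nrp1 -0.05 to 0.64 around 0.29, so differences up to these bounds cannot be told from none. Flt1 was at -0.40 (SE 0.17, edgeR, adjusted p = 0.285) and Pgf at 0.55 (SE 0.47, adjusted p = 0.617). In all 12 retinas edgeR called 0 of the 9 and 0% of all genes, with 2 of the 9 and 2183 of all genes at an unadjusted p under 0.05, and DESeq2 and limma voom called 0 of the 9 as well. The signs of Vegfb, Kdr and Flt4 in this comparison turned with animal 10 (0.58, -0.21 and -0.12 with it, -0.26, 0.18 and 0.13 without it).

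The ratio of 2 genes within a retina does not depend on library size. Animal 10 was above all other retinas in each of the 3 ratios computed. The Vegfb to Vegfa count ratio was 0.167 ± 0.0358 in RA-PBS (SD, n = 4), 0.0567 ± 0.00245 in O2-PBS (n = 4) and 0.0822 ± 0.00798 in O2-IC100 without animal 10 (n = 3), and 0.805 in animal 10. Without animal 10 the 3 groups did not overlap, with O2-PBS lowest and least spread. In an exact two-sided permutation test the log2 ratio was 1.54 lower in O2-PBS than in RA-PBS (p = 0.0286, the smallest that 4 against 4 allows, adjusted over the 9 ratio tests 0.129; difference -1.54). Against O2-PBS, the O2-IC100 log2 ratio was 1.36 higher in all 12 retinas (exact permutation p = 0.0286, adjusted p = 0.129) and 0.53 higher without animal 10 (exact permutation p = 0.0571, the smallest that 3 against 4 allows). In terms of the summed level of the 4 ligands per kb, Vegfa made up 61.9% to 71.0% in RA-PBS, 84.7% to 85.7% in O2-PBS and 79.1% to 81.8% in animals 9, 11 and 12, but 29.4% in animal 10, where Vegfb made up 63.7%.

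The Pgf to Vegfa ratio was 0.00604 ± 0.00407 in RA-PBS and 0.0101 ± 0.00395 in O2-PBS (SD, n = 4 each), which overlap (exact permutation p = 0.2, adjusted p = 0.45), and 0.00527 ± 0.000604 in O2-IC100 without animal 10 (n = 3). Without animal 10 the O2-IC100 log2 ratio differed from O2-PBS by -0.87 (exact permutation p = 0.0571), whereas with it the difference was 0.19 (p = 1). The Flt1 to Kdr ratio was 0.577 ± 0.106 in RA-PBS and 0.412 ± 0.103 in O2-PBS (SD, n = 4 each), a log2 difference of -0.50 (exact permutation p = 0.0857, adjusted p = 0.257), and 0.373 ± 0.0440 in O2-IC100 without animal 10 (n = 3). That difference was not resolved from the spread between retinas. Of the 9 ratio tests none had an adjusted p under 0.1, and 2 had an unadjusted p under 0.05, both of Vegfb to Vegfa.

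**Figure D4:**
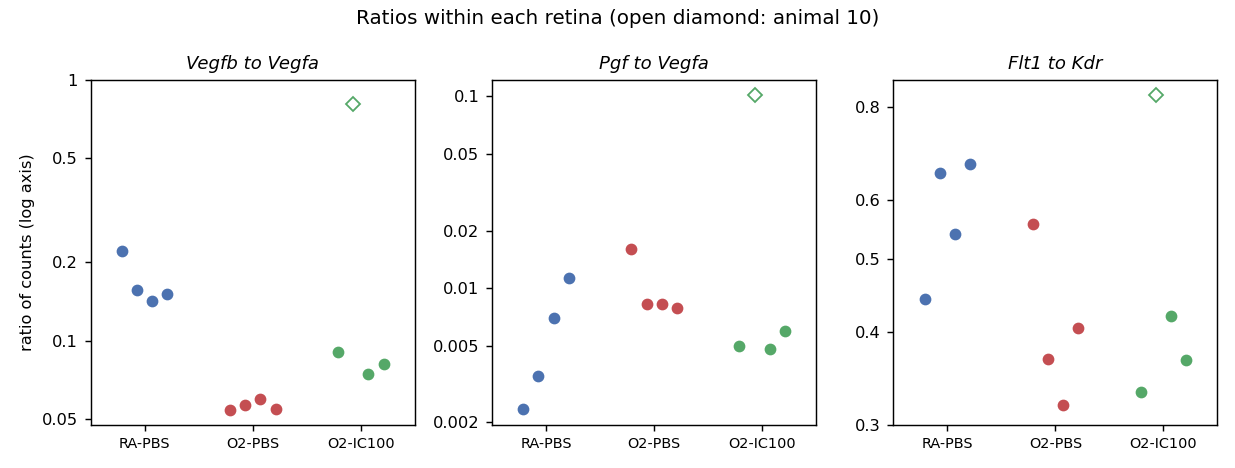
Ratio of counts (log axes) of 3 pairs of genes in each retina, by group, with 1 point per retina and the open diamond for animal 10. The Vegfb to Vegfa ratio separates the 3 groups without animal 10 (0.142 to 0.220 in RA-PBS, 0.0546 to 0.0600 in O2-PBS, 0.0746 to 0.0905 in O2-IC100), while the other ratios overlap between RA-PBS and O2-PBS.

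Endothelial markers were higher in O2-PBS without animal 10 as well. The summed level of the 10 markers was 125 to 156 CPM in RA-PBS, 264 to 338 CPM in O2-PBS, 189 to 219 CPM in animals 9, 11 and 12 and 54.5 CPM in animal 10. Without animal 10, 9 of the 10 were called higher in O2-PBS than in RA-PBS (median log2 fold change 1.19) and 3 of the 10 lower in O2-IC100 than in O2-PBS (median -0.47), and for the 8 pericyte and mural markers 6 were called higher and 2 lower, beside 4.09% of all genes called higher and 0.731% lower in these comparisons. The fit of all 12 retinas called 2 of the 10 endothelial and 0 of the 8 pericyte and mural markers higher (edgeR, 0.782% of all genes), with the same medians of 1.19 and 0.95 as without animal 10, and none was called lower in O2-IC100. In bulk retina, fewer or more cells of a type and less or more RNA per cell cannot be told apart. As a description, each gene was set against the geometric mean of these 10 markers in the same retina, on a log2 scale that compares retinas and not genes. On that scale Flt1 was 2.68 in RA-PBS (2.20 to 3.06), 1.69 in O2-PBS (1.49 to 2.02) and 1.61 in animals 9, 11 and 12 (1.53 to 1.72), so both oxygen groups lay below all RA-PBS retinas. Kdr was 3.49 (2.78 to 4.08), 3.00 (2.80 to 3.20) and 3.04 (2.97 to 3.12), with overlap, and Flt4 was -0.87 (-1.41 to -0.26), -0.94 (-1.16 to -0.77) and -1.37 (-1.55 to -1.20). On this scale the difference of O2-PBS from RA-PBS was -0.99 for Flt1, -0.49 for Kdr and -0.07 for Flt4, and for Vegfa, which is not an endothelial marker, it was 0.03. For the other members it was -1.51 (Vegfb), -1.68 (Vegfc), -0.87 (Nrp2), -0.275 (Nrp1) and 0.97 (Pgf). Because the markers themselves were higher in O2-PBS, a gene with an unchanged level falls on this scale. The 6 markers of Müller glia, a source of VEGF-A, summed to 2855 to 4314 CPM in RA-PBS, 2335 to 2655 CPM in O2-PBS and 2772 to 2978 CPM in animals 9, 11 and 12. Without animal 10, 2 of them were called lower in O2-PBS than in RA-PBS, with none higher, beside 2.18% of all genes called lower. In all 12 retinas 0 were called. The part of these cell type markers in the differences of the 9 genes was not tested. Lens markers were at most 23.3 CPM in sum in animals 9, 11 and 12 and 901460 CPM in animal 10.

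Genes that endothelial cells are known to switch on in response to VEGF were compared next. The list was chosen with earlier results of these data known, so its counts are given as description. Without animal 10, 11 of these 12 genes were called higher in O2-PBS than in RA-PBS, beside 4.09% of all genes. Their median log2 fold change was 1.65 beside -0.007 over all genes, and in all 12 retinas 7 of 12 were called, beside 0.782%. Of the 10 endothelial markers, 9 were called higher without animal 10 (median 1.19) and 2 in all 12 retinas. Esm1, a proteoglycan gene of endothelial tip cells, read 0 to 0.278 CPM in RA-PBS and 5.58 to 11.2 CPM in O2-PBS. Apln, which encodes the ligand of the apelin receptor, had a log2 fold change of 3.29 (SE 0.30, edgeR, adjusted p = 0.000103), Angpt2, a destabilizer of vessels, 2.16 (SE 0.24, adjusted p = 0.000198), and Egr3, a transcription factor, 2.03 (SE 0.36, adjusted p = 0.00427). Against O2-PBS, 4 of the 12 were called lower in O2-IC100 without animal 10, beside 0.731% of all genes, with a median of -0.95 beside 0.004 over all genes. These were Esm1 (log2 fold change -1.34, SE 0.33, edgeR, adjusted p = 0.0997), Igfbp3 (-1.32, SE 0.24, adjusted p = 0.0381), Angpt2 (-1.27, SE 0.26, adjusted p = 0.0542) and Unc5b, a netrin receptor (-0.84, SE 0.17, adjusted p = 0.0528). Of the 10 endothelial markers, 3 were called lower in that comparison (median -0.47). Whether the 12 genes moved apart from those markers was not tested. Esm1 read 2.40, 4.32 and 3.48 CPM in animals 9, 11 and 12, between the other groups, and 0.253 CPM in animal 10. Esm1, Apln and Cxcr4 were still called higher in O2-IC100 than in RA-PBS without animal 10, beside 0.947% of all genes. The count of 4 ranged from 0 to 9 over the alternatives. It was 9 with DESeq2 and with 2 groups only, beside 2.72% and 4.83% of all genes called in either direction. The count of 11 against RA-PBS ranged from 10 to 11, and with the crystallin covariate 19.6% of all genes were called. In all 12 retinas the count of 7 against RA-PBS ranged from 2 to 11. It was 2 without animal 2 and 11 without animal 10, beside 0.192% and 6.27% of all genes.

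Of the 48 genes tested of the cascade downstream of the receptors (kinases, adaptors, phosphatases), 2 were called higher and 2 lower in O2-PBS than in RA-PBS without animal 10, a share of 8.33% beside 6.27% of all genes called in either direction. The median log2 fold change was -0.03, and in all 12 retinas 1 was called higher and 0 lower, beside 0.782% and 0.0243% of all genes. The higher ones were Cdh5, which encodes VE-cadherin of endothelial junctions and is also 1 of the endothelial markers (1.67, SE 0.16, edgeR, adjusted p = 7.57e-05), and Nfatc1, a calcineurin-dependent transcription factor (1.07, SE 0.28, adjusted p = 0.0302). The lower ones were Prkcb, a protein kinase C gene (-0.65, SE 0.099, edgeR, adjusted p = 0.00165), and Hspb1, a small heat shock protein that is also abundant in lens. Hspb1 read 2.52 CPM in RA-PBS animal 1, which had almost no crystallin, 28.0, 97.0 and 49.0 CPM in animals 2, 3 and 4, 4.30 to 5.67 CPM in O2-PBS and 4396 CPM in animal 10. The part of the crystallin share in its call was not tested. Cdh5, Ptprb, which encodes the endothelial phosphatase VE-PTP, and Iqgap1, a scaffold protein, were called lower in O2-IC100 than in O2-PBS without animal 10, at log2 fold changes of -0.83, -0.79 and -0.63 (edgeR, adjusted p = 0.0545, 0.0586 and 0.0882). Of all genes, 0.731% were called lower in that comparison. Against RA-PBS, Cdh5 was called higher in O2-IC100 (0.84, edgeR, adjusted p = 0.0436) and Ptprb lower (-0.62, adjusted p = 0.0857), while 0.617% of all genes were called lower.

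Of the 22 genes for ligand processing, matrix binding and neuropilin partners, 1 was called higher and 2 lower in O2-PBS than in RA-PBS without animal 10, a share of 13.6% beside the same 6.27%. In all 12 retinas 1 of these genes was called higher and 0 lower, beside 0.782% and 0.0243% of all genes. Plxnd1, the receptor of semaphorin 3E on blood vessels, read 13.4 to 22.9 CPM in RA-PBS and 41.9 to 71.0 CPM in O2-PBS (log2 fold change 1.73, SE 0.20, edgeR, adjusted p = 0.000205). It read 25.0 to 29.4 CPM in animals 9, 11 and 12. Without animal 10 it was called lower there than in O2-PBS (-0.98, SE 0.21, edgeR, adjusted p = 0.0659), beside 0.731% of all genes called lower. The neuropilin ligand genes Sema3c (-1.43, SE 0.31, edgeR, adjusted p = 0.0138) and Sema3d (-0.88, SE 0.27, adjusted p = 0.0631) were called lower in O2-PBS. Of the 15 oxygen-sensing genes and hypoxia targets, 2 were called higher in O2-PBS in both fits, and the median log2 fold change was 0.13. Of all genes, 4.09% were called higher without animal 10 and 0.782% in all 12 retinas. With all 12 retinas edgeR called no gene of any list in either comparison of O2-IC100, as for all genes. Adm, which encodes the vasoactive peptide adrenomedullin, read 0.449 to 1.39 CPM in RA-PBS, 7.35 to 14.1 CPM in O2-PBS and 4.41 to 4.80 CPM in animals 9, 11 and 12. Egln3, an oxygen-dependent prolyl hydroxylase that marks HIF for destruction, had a log2 fold change of 1.89 (SE 0.18, edgeR, adjusted p = 7.57e-05) against RA-PBS. Without animal 10, both were called lower in O2-IC100 than in O2-PBS (Adm -1.23, SE 0.28, edgeR, adjusted p = 0.0825, and Egln3 -0.94, SE 0.19, adjusted p = 0.0528), beside 0.731% of all genes called lower. These 2 calls ranged from 0 to 2 over the alternatives. Both genes were also called higher than in RA-PBS without animal 10 (Adm 2.28 and Egln3 0.95, edgeR, adjusted p = 0.00732 and 0.0441), beside 0.947% of all genes called higher.

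**Figure D5:**
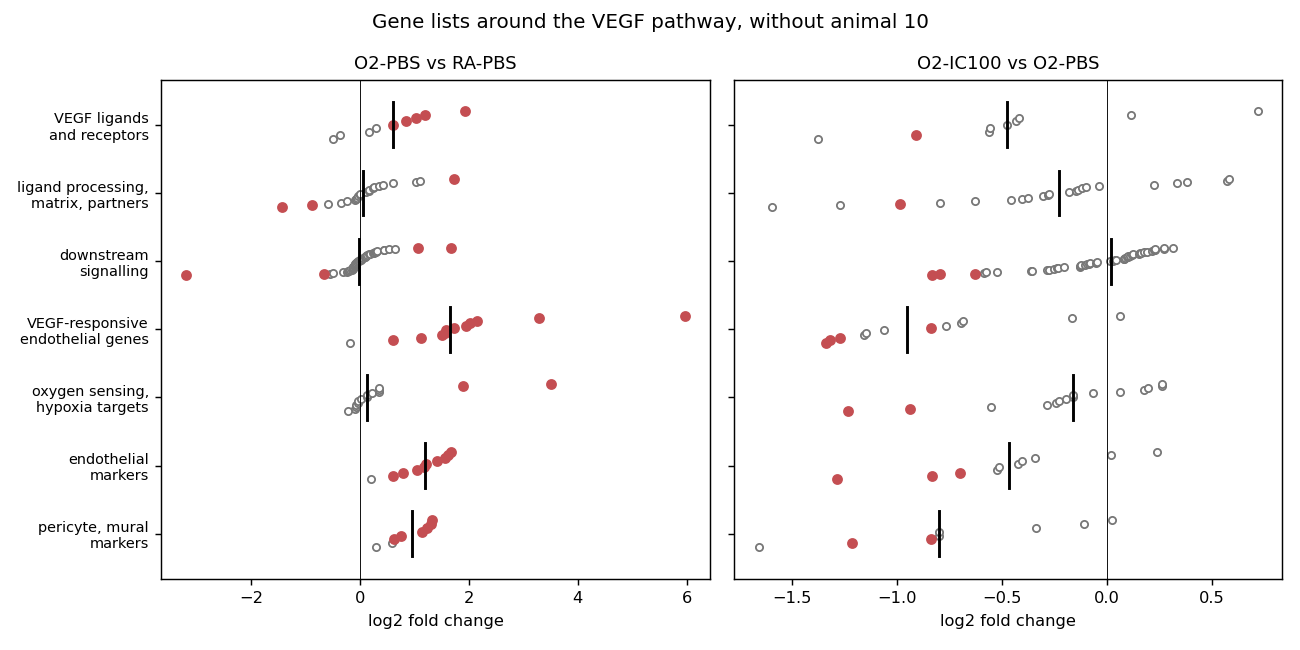
Log2 fold changes of the genes of 7 lists in 2 comparisons without animal 10, with 1 point per gene (red for called genes, open for the rest) and a black bar for each list's median. The 12 VEGF-responsive genes have medians of 1.65 and -0.95, while the downstream signalling genes centre near 0 (-0.03 and 0.02).

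The genes whose pattern over the 11 retinas was most like each of the 9 were found by the root mean square difference of centred log2 CPM among 14956 genes with a mean of at least 1 CPM. For Vegfa these were Pecam1, an endothelial adhesion gene, at 0.113, Btc at 0.115 and Egfl7, another endothelial gene, at 0.141, where Vegfa's own standard deviation was 0.518. Pecam1 read 17.5 to 22.9 CPM in RA-PBS, 40.7 to 51.0 CPM in O2-PBS and 29.2 to 34.8 CPM in animals 9, 11 and 12. For Nrp1 the nearest were Tead3 (0.092), Acvrl1 and Igfbp5 (0.119), and for Flt4 they were Myo10 (0.186), Acvrl1 (0.194) and Scarf1 (0.202). Acvrl1, an endothelial receptor of bone morphogenetic proteins, was thus near both. The nearest to Pgf, Cebpd at 0.321, was farther away, beside Pgf's own standard deviation of 1.03. Flt1 was nearest to Fcer2a (0.074), Mast4 and Hivep2, Kdr to Slc12a7 (0.153), Zfp69 and Gp1ba, Nrp2 to Sh3pxd2a (0.086), Smad3 and Rai1, Vegfb to Acot7 (0.071), Prkar1b and Scrn1, and Vegfc to Tmem254a (0.127), Dgkb and Acsl3. Of the 9 genes, only Vegfa had genes of the endothelial marker list among its 3 nearest.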

How the data were processed

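RNA of 12 retinas was sequenced for the authors by a company after poly(A) selection as read pairs, and per the labels RNA was extracted with a QIAGEN RNeasy kit, where the methods name Trizol. Kallisto was run by the authors against transcripts of GRCm39_104, and tximport summed them by gene. The deposited values are therefore expected counts, not normalized to library size, and 42% of them are not whole. Symbols were matched by Ensembl identifier for 35374 of 36131 genes.

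After rounding, edgeR 4.0.16 in R 4.3.3 was used (trimmed-mean factors, filterByExpr, robust quasi-likelihood F test, two-sided, no covariate), for 16489 genes in 12 retinas and 16688 in 11. Transcript lengths were taken from GENCODE M21 (GRCm38), so levels per kb are approximate, and promoter sequences are from RefSeq (GRCm38.p6). Ratios were compared with exact permutation tests (scipy 1.17.1), adjusted over the 9 tests.

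The 9 genes, the gene lists and the tests were chosen with earlier results of these data known. Genes named beside the 9 were those called in each list, at most 4 per list and comparison by size of change without animal 10, the 3 nearest in pattern, markers and, chosen after their values were seen, Gfap. The scale relative to endothelial markers, the ligand shares and the split by Y-linked level were chosen after seeing the data. Depth set a floor of 3 counts, 0.123 to 0.201 CPM before scaling by the trimmed-mean factors. The procedure was tested on simulated data. Alternatives were DESeq2 1.42.0, limma 3.58.1 voom, other normalizations, filters, thresholds and covariates, fits of 2 groups, and each animal left out.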

Additional observations from a re-analysis of the deposited data

Results flagged for a closer look

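In each group of 4 retinas the highest and the lowest value of the 9 genes and 3 ratios were checked with Dixon's gap criterion at the 95% level, which chance alone meets in about 1 of 20 groups. Of 36 groups checked, 10 met it, 7 of them through O2-IC100 animal 10, the retina with 59.0% crystallin counts. In animal 10 Vegfb was 114.4 CPM, Pgf 14.39 CPM, Nrp2 29.04 CPM, Kdr 10.35 CPM and Flt4 2.399 CPM, the Pgf to Vegfa ratio was 0.1013 and the Vegfb to Vegfa ratio was 0.8049. The first 3 genes and both ratios were the highest of the 4 O2-IC100 retinas, and Kdr and Flt4 the lowest.

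The other 3 values belong to 2 retinas that do not stand apart in crystallin counts from most of the series. RA-PBS animal 1 had 42.24 CPM of Vegfb, against 28.2 to 30.0 CPM in the other RA-PBS retinas, and it was the RA-PBS retina with the fewest crystallin counts. O2-PBS animal 5 had 7.658 CPM of Pgf, against 3.18 to 3.73 CPM in the other O2-PBS retinas, and a Pgf to Vegfa ratio of 0.01601. The same retina had the highest Vegfa, Flt1 and Nrp2 of its group, at 478, 101 and 36.9 CPM.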

How the results depend on the processing

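Without animal 10, Vegfa, Pgf, Flt4 and Nrp1 were called higher in O2-PBS than in RA-PBS under all 24 alternatives run, with log2 fold changes of 1.15 to 1.25, 1.55 to 2.84, 0.89 to 1.28 and 0.75 to 1.07. Kdr was not called there with the crystallin covariate, with 2 groups only, or without animal 4 or 7. Leaving out 1 animal gave 4 to 5 calls in this comparison, 0 to 2 for O2-IC100 vs O2-PBS and 1 for O2-IC100 vs RA-PBS. The shares of all genes called in these fits were 4.72% to 8.09%, 0% to 2.6% and 0.124% to 5.57%. The 1 call for O2-IC100 vs O2-PBS became 2 with DESeq2 or no minimum fold change, 3 with 2 groups only, and 0 with empirical Bayes that was not robust or an adjusted p under 0.05. Of all genes, 2.72% were called with DESeq2, 4.83% with 2 groups only and 0.743% with empirical Bayes that was not robust. For O2-IC100 vs RA-PBS, the crystallin covariate gave 2 calls, beside 10.7% of all genes called in either direction.

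In all 12 retinas, the 2 calls for O2-PBS vs RA-PBS became 4 with 2 groups only, 1 with no filter on low counts, 0 at an adjusted p under 0.05, 5 without animals 1 and 10, and 0 to 5 with 1 animal left out (5 without animal 10, 0 without animal 1, 2, 4, 5, 7 or 8). Of all genes, 5.36% were called with 2 groups only, 0.401% with no filter and 5.82% without animals 1 and 10. With 1 animal left out the share was 0.192% to 6.27%. For O2-IC100 vs O2-PBS, 0 became 2 with DESeq2, 7 with the Y-linked covariate and 1 without animals 1 and 10, beside 0.809%, 21.1% and 1.69% of all genes called in either direction. For O2-IC100 vs RA-PBS, 0 became 4 with the crystallin covariate and 1 without animals 1 and 10, beside 22.1% and 1.89% of all genes. Leaving out 1 animal gave 0 to 1 in both, 1 only without animal 10, where 0.947% and 1.56% of all genes were called. The cause of these changes was not tested.

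Of 1350 log2 fold changes of the 9 genes under alternatives, 23 had the opposite sign, all of genes not called in the same fit. In all 12 retinas with the crystallin covariate these were Vegfb (0.047), Flt1 (-0.66) and Kdr (-0.60) for O2-PBS vs RA-PBS and Pgf (-1.42) for O2-IC100 vs O2-PBS, where Pgf was also -0.81 with limma voom, -0.08 with upper-quartile factors, -1.37 without animals 1 and 10, and -1.375 to 0.444 with 1 animal left out. For O2-IC100 vs RA-PBS without animals 1 and 10, Vegfb was -0.10, Kdr 0.33 and Flt4 0.051, and with 1 animal left out Vegfb ran from -0.261 to 0.793, Kdr from -0.399 to 0.178, Flt4 from -0.273 to 0.13 and Nrp2 from -0.192 to 0.038. Without animal 10 in that comparison, Kdr was -0.072 with the crystallin covariate and -0.007 to 0.326 with a further animal left out, and Flt4 was -0.002 with the Y-linked covariate and -0.024 to 0.319 with a further animal left out.

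With 1 animal left out, the log2 ratio differences of Vegfb to Vegfa were -1.62 to -1.40 (O2-PBS vs RA-PBS), 0.53 to 1.68 (O2-IC100 vs O2-PBS) and -1.01 to 0.14 (O2-IC100 vs RA-PBS), with no p under 0.0571 possible, those of Pgf to Vegfa -0.87 to 0.59 and of Flt1 to Kdr -0.12 to 0.33 for O2-IC100 vs O2-PBS. With the median transcript length, 4 of 8 neighbouring pairs of levels kept their order. No paired analysis was possible because the labels give each animal its own number. Depth limits Pgf and Vegfc most, at 8 to 127 and 20 to 70 counts per retina. Splice forms, cell types and protein were not measured.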
